A study of Mus musculus with 7 samples.

Results

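The genes described here are the 4 mouse Notch receptors (Notch1, Notch2, Notch3 and Notch4) and their 5 canonical ligands (Jag1, Jag2, Dll1, Dll3 and Dll4), and the measurement is where and how strongly DNA carrying 5-methylcytosine (5mC) was enriched in them. Members were the active regions, that is called 5mC intervals merged over libraries, that overlapped a gene body (RefSeq, GRCm38.p6) or the 1 kb on either side. There were 51 such regions of 133337 in all. The regions were chosen by being called in at least 1 library, so their number, density and height are given as a description. The material was hippocampal neurons of C57BL/6J mouse embryos taken at E18.5 and kept for 11 days in culture, with the inhibitor of dividing cells AraC in the medium, per the labels. One group of 3 libraries came from cultures given 55 mM KCl, which depolarises neurons, for 4 h, and the other group of 3 libraries from untreated cultures. Methylated fragments were pulled down with an antibody and sequenced (MeDIP-seq), and 1 pooled input library was not analysed here. The labels do not say whether the 3 libraries of a group were separate cultures, so the p-values rest on a spread among libraries that may be technical alone. MeDIP-seq holds no expression, so the labelled cell type was not checked against markers. A height averages over all cells and both alleles, so a region methylated in fewer cells and one with less methylation per cell cannot be told apart.

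Notch signalling passes between touching cells. A ligand of the Jagged or Delta-like family on one cell binds a Notch receptor on the next, an ADAM protease and then γ-secretase cut the receptor, and the released intracellular domain joins the DNA-binding protein Rbpj and a Mastermind coactivator to switch on repressor genes of the Hes and Hey families. In the hippocampus the pathway is known for keeping neural stem cells undifferentiated, and Notch1 and Jag1 are also found at synapses of mature neurons.

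Promoters of the 9 genes were compared with those of all protein-coding genes, where few held a 5mC region. The windows compared run over 250 bases before and 50 bases after each RefSeq start site, with 10 windows for the 9 genes because Dll1 has a pair of start sites. Active regions overlapped 0 of these 10 windows, against 772 of 21263 windows of protein-coding genes (3.63%). With 10 windows a count of 0 is near that share, so the members are not set apart by it. The 10 windows held between 5 and 63 CpG dinucleotides, the site of most 5mC, with a median of 22.5, against a median of 13 over all windows. Windows with at least 5 CpGs overlapped a region in 4.20% of cases. The bases upstream of 3 start sites are printed because they span the range found here, with every CpG in capitals (RefSeq, GRCm38.p6, 5′ to 3′ on the strand of the gene). Jag2, which encodes a Jagged ligand, has the most CpG-rich window and the most densely covered gene body. Notch3, a receptor known from vascular smooth muscle and pericytes, has the region closest to a start site, and Notch4, a receptor known from endothelium, has the window with the fewest CpGs.
Jag2, chr12:112929496-112929745, minus strand: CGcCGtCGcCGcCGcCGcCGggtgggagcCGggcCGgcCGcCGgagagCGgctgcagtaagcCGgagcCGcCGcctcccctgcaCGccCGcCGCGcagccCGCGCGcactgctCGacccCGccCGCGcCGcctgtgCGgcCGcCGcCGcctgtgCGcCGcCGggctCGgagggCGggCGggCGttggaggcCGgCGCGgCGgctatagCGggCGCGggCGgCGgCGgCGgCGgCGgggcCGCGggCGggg
Notch3, chr17:32166891-32167140, minus strand: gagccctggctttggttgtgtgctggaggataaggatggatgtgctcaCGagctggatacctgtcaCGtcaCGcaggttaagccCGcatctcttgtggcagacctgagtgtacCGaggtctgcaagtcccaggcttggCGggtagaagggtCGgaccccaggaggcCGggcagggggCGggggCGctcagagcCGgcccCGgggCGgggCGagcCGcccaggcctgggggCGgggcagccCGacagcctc
Notch4, chr17:34564045-34564294, plus strand: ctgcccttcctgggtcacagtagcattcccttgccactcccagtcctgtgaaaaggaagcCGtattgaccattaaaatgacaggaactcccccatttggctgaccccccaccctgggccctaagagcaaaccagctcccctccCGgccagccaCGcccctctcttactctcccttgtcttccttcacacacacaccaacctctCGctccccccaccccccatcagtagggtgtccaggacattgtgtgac
The printed stretches hold 54 CpGs at Jag2, 17 at Notch3 and 4 at Notch4. The 63 CpGs of the whole Jag2 window were more than those of 99.96% of the windows of protein-coding genes. The nearest region lay 358 bp from the start site at Notch3 and 852 bp at Notch2, and between 1687 and 6629 bp at the other 8 start sites. That a CpG-poor stretch has no region says little about its methylation, since MeDIP recovers more DNA where methylated CpGs are dense.

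Where the regions lay along the genes differed from the start-site end to the other end. Of the 51 regions, 49 had their centre in a gene body, and 35 of these (71.4%) lay beyond the midpoint of the gene, against 55.5% of 54611 gene-body regions of all protein-coding genes. The first 25% of the gene length held 3 of the 49 (6.12%), against 21.5% over all protein-coding genes. The share beyond the midpoint was 77.1%, 79.2% and 68.4% in KCl replicates 1 to 3, against 63.9%, 76.3% and 75% in untreated replicates 1 to 3. Notch2 gave 16 of the 35 downstream regions and Jag2 gave 8. Over the other 7 genes 11 of 19 regions (57.9%) lay beyond the midpoint, which is near the share over all genes. Of these 19, 1 (5.26%) lay in the first 25% of the gene length, against 21.5% over all protein-coding genes. The last 25% held 3 (15.8%), against 30.2%. The 2 regions outside a gene body were both upstream, at Notch2 and Notch3. They are also the members nearest to the limit of 1 kb, at 852 bp from the gene bound for Notch2 and 352 bp for Notch3. The nearest regions beyond that limit lay 2933 bp from Jag1 (called in 5 libraries, mean height 17) and 3752 bp from Notch1 (4 libraries, mean height 14.3). For the other 7 genes they lay at 5346 to 14805 bp. The gene table used holds gene bounds only, so exons and introns were not assigned.

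**Figure D1:**
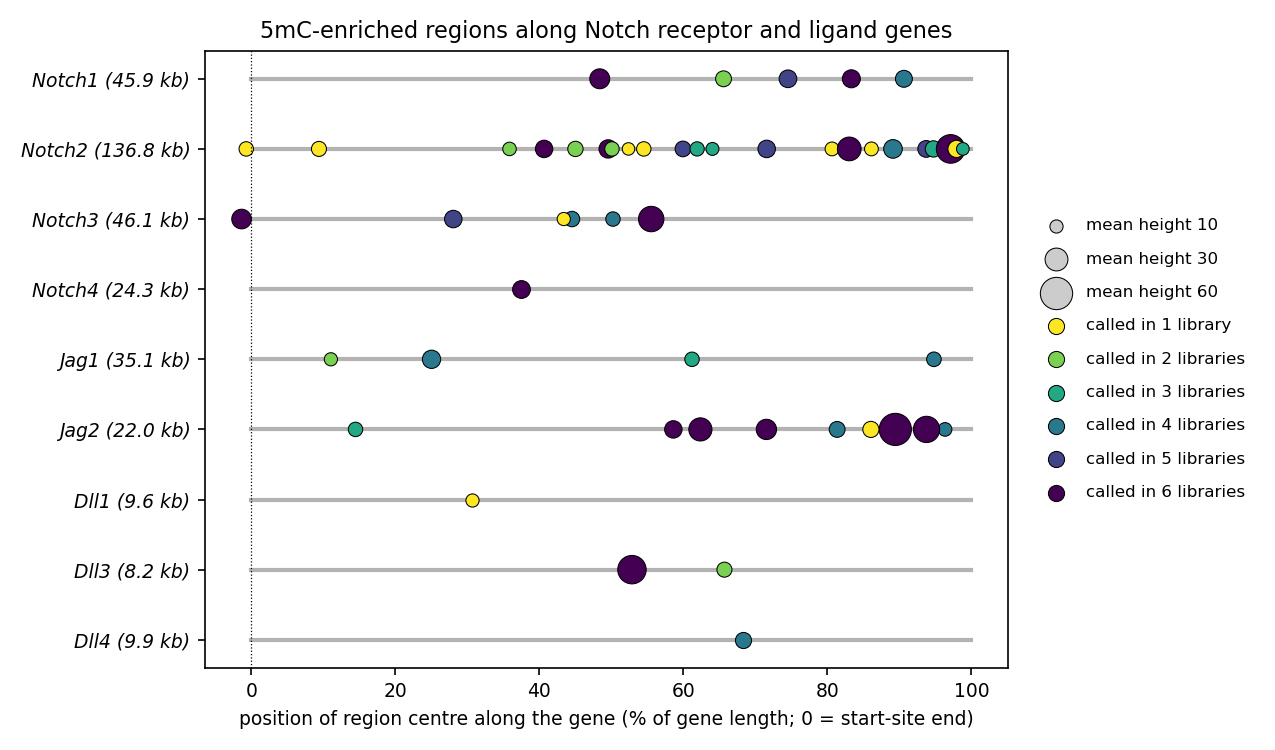
Each row is a gene drawn to the same width (its length in kb beside its name), and each circle is an active region at the position of its centre, in % of gene length from the start-site end. Circle area is proportional to the mean summit height over the libraries that called the region and colour gives the number of libraries; Notch2 and Jag2 show the crowding towards the far end, with 16 and 8 regions beyond the midpoint.

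The receptors held 34 regions in 261.086 kb of gene windows and the ligands 17 in 94.773 kb, which is 13.0 and 17.9 regions per 100 kb. The higher ligand value rests on Jag2, which alone gave 9 of the 17 in 24.01 kb, or 37.5 per 100 kb. The other ligands lay at 10.8 (Jag1), 8.64 (Dll1), 19.5 (Dll3) and 8.42 (Dll4). Over the 9 genes together the density was 14.3 per 100 kb, against 6.67 over the summed windows of all 21887 protein-coding genes. The median member had 10.8 regions per 100 kb and the median protein-coding gene 4.84, and 8 of the 9 genes lay above 4.84. All 9 genes had a region, as had 65.3% of protein-coding genes. Regions called in all 6 libraries numbered 15 of 51 (29.4%), against 20.5% of all active regions, and 10 (19.6%) were called in 1 library, against 29.3%. The median region was 410 bp long, against 357 bp over all regions, and members ran between 195 and 1459 bp. Mean height, taken over the libraries that called a region, had a median of 15 over the members and 13 over all regions. Heights are the authors' values at the summit, whole numbers of at least 6.

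Jag2 stood at the top of the density order. It had 9 regions in its 22010 bp (chromosome 12, 112907803 to 112929812, minus strand), or 37.5 per 100 kb, more than 98.0% of protein-coding genes. Of these, 8 lay within 8.697 kb at the downstream end (112908455 to 112917151), and regions covered 56.7% of that stretch. The 12.661 kb from there to the start-site end held 1 region. The highest member region of all was in this cluster (112909799 to 112910454), with heights of 71, 62 and 49 in KCl replicates 1 to 3 and 56, 69 and 50 in untreated replicates 1 to 3. The groups overlapped, and the region stood above 98.9% of all active regions by mean height. Its neighbour (112908911 to 112909435) had heights of 47, 42 and 23 with KCl and 37, 55 and 34 without. The longest member region, 1459 bp, was also here (112913338 to 112914796), at 26, 25 and 20 with KCl against 21, 30 and 20 untreated. The Jag2 region within 1 kb of the gene's downstream end (112908455 to 112908759) was low, with a mean height of 10.8 in 4 libraries. Jag1, the other Jagged ligand and the one best known from neural stem cell niches, had 4 regions in 35070 bp (chromosome 2, 137081451 to 137116520), or 10.8 per 100 kb, and none of them was called in all 6 libraries. Its highest (137107482 to 137107998) had a height of 23 in KCl replicate 1, no call in KCl replicates 2 and 3, and 20, 19 and 15 in the untreated libraries.

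The Delta-like ligand genes are short and held 4 regions in all. Dll3, a divergent ligand that acts inside the cell against Notch and does not activate it on neighbours, had 2 in 8231 bp (chromosome 7, 28293555 to 28301785), or 19.5 per 100 kb. The upper one (28297203 to 28297665) was among the 3 highest of the members by mean height, with 65, 43 and 28 in KCl replicates 1 to 3 and 53, 51 and 39 in untreated replicates 1 to 3. KCl replicates 1 and 3 were the highest and the lowest of the 6 libraries there. Dll1, a ligand of neurogenesis, had 1 region in 9579 bp (chromosome 17, 15367354 to 15376932), called in untreated replicate 1 alone at a height of 10 (15373852 to 15374136). Dll4, the ligand of sprouting vessels, had 1 region in 9883 bp (chromosome 2, 119325784 to 119335666). It was called in KCl replicates 1 and 2 at 11 and 18 and in untreated replicates 1 and 2 at 19 and 12, and in neither replicate 3 (119332413 to 119332662). Densities of these genes rest on 1 or 2 regions each and are coarse.

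Among the receptors Notch2, which shares its domain plan with Notch1 and is also expressed by neural stem cells, is the longest gene and gave 22 of the 51 regions in its 136830 bp (chromosome 3, 98013538 to 98150367, plus strand), or 15.8 per 100 kb. Of these, 7 were called in 1 library and 4 in all 6. The highest (98145948 to 98146920) lay 3447 bp from the downstream end of the gene and had heights of 59, 40 and 20 in KCl replicates 1 to 3, against 60, 63 and 41 in untreated replicates 1 to 3. All 3 KCl heights were below the upper untreated pair, but the groups overlapped at the third untreated library. The next (98126933 to 98127402) had 40, 35 and 24 with KCl and 29, 37 and 29 without. The region upstream of the gene (98012489 to 98012686) was called in KCl replicate 1 alone, at 12. Notch1, the receptor needed for neural stem cell maintenance, had 5 regions in 45921 bp (chromosome 2, 26457902 to 26503822), or 10.4 per 100 kb, all called in at least 2 libraries. Its highest (26481363 to 26481835) had 24, 24 and 14 with KCl and 26, 24 and 25 without, with KCl replicate 3 standing low. Notch3 had 6 regions in 46077 bp (chromosome 17, 32120820 to 32166896), or 12.5 per 100 kb. The highest (32141065 to 32141544), where the predicted gene Gm41568 overlaps, had 41, 36 and 23 with KCl and 52, 40 and 31 without. The region upstream of the Notch3 start site (32167248 to 32167782) was called in all 6 libraries, with heights of 31, 27 and 15 with KCl and 23, 16 and 21 without. It was the one member region upstream of a start site that every library called. Notch4 had 1 region in 24258 bp (chromosome 17, 34564286 to 34588543), or 3.81 per 100 kb, which was below the median protein-coding gene. Every library called it (34573027 to 34573725), at 26, 18 and 17 with KCl and 15, 17 and 16 without, so that the lowest KCl value equalled the highest untreated one.

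Ordered by density, the genes ran from Jag2 through Dll3, Notch2, Notch3, Jag1, Notch1, Dll1 and Dll4 to Notch4. Per library, Jag2 had 27.8 ± 4.81 called regions per 100 kb with KCl and 30.5 ± 4.81 untreated (SD, n = 3 each), and each of its 6 libraries lay above the highest library of any other member, which was 19.5 for Dll3. Notch1 had 6.26 ± 2.09 with KCl and 9.74 ± 1.20 untreated. Notch2 had 6.72 ± 3.00 with KCl and 9.60 ± 0.416 untreated, and Notch3 had 7.63 ± 2.40 with KCl and 10.4 ± 2.08 untreated. These 3 receptors did not differ from each other beyond their spread within a group. Dll3, at 13.0 ± 5.64 in either group, overlapped with them as well. By the distance between the 6 per-library densities, the protein-coding genes most like Notch2 were Srrm4 (1.27), Meak7 (1.28), Tex2 (1.33) and Dedd (1.44), in regions per 100 kb. Srrm4 held 24 regions and Tex2 15. Meak7 held 3 in 20.4 kb and Dedd 2 in 19.8 kb, so their densities are coarse.

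**Figure D2:**
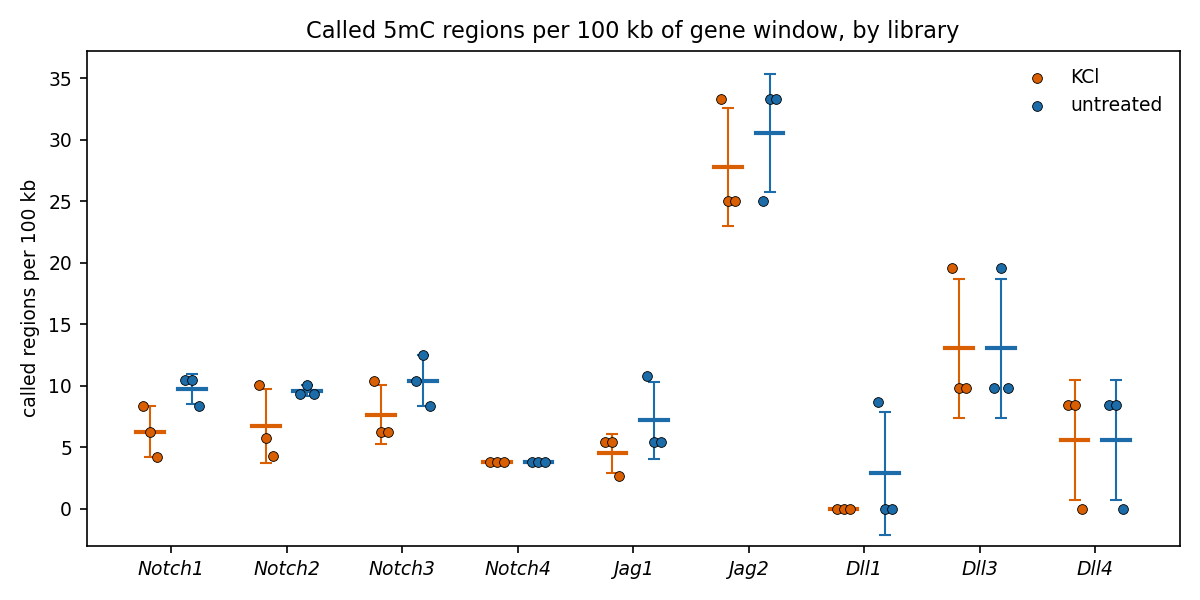
Called regions per 100 kb of gene window (gene body with 1 kb on either side), on the y axis, for each gene; points are libraries, horizontal bars are means and whiskers are SDs (n = 3), with KCl left and untreated right. Every library of the other genes lies at 19.5 or below, and every Jag2 library above that.

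The comparison of KCl with untreated libraries asks whether depolarisation moves 5mC. Depth is unknown, since read totals were not used here, and the number of called intervals differed most within the KCl group, which held 93470, 60949 and 34834 intervals in replicates 1 to 3, against 87151, 87302 and 72947 untreated. Of the 51 member regions, 37, 25 and 20 were called in KCl replicates 1 to 3, against 37, 39 and 33 in untreated replicates 1 to 3. KCl replicate 1 equalled untreated replicate 1, and the other KCl libraries lay below all untreated ones. The means were 27.3 ± 8.74 with KCl and 36.3 ± 3.06 untreated (SD, n = 3 each), and the mean difference was -9.00 (two-sided exact permutation p = 0.3, smallest possible 0.1). Leaving out KCl replicate 3 gave a difference of -5.33, and leaving out KCl replicate 1 gave -13.8. When each library kept only its 34834 highest intervals, 16, 16 and 20 of the 51 member regions were called in KCl replicates 1 to 3. In untreated replicates 1 to 3 they were 16, 15 and 21, a difference of 0. Each library then called 25.7% to 25.9% of all active regions.

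In every library the share of member regions that were called was above the share of all active regions. KCl replicates 1 to 3 called 72.5%, 49.0% and 39.2% of the member regions and 69.4%, 45.0% and 25.7% of all active regions. Untreated replicates 1 to 3 called 72.5%, 76.5% and 64.7% of the members and 64.3%, 64.7% and 53.9% of all. KCl replicate 3 had no call at 31 of the 51 (60.8%), against 74.3% of all regions. Member regions called in KCl libraries and no untreated one numbered 4 (7.84%), against 11.9% of all regions, and those called in untreated libraries and no KCl one numbered 10 (19.6%), against 24.0%. Every untreated library and no KCl library called 2 of these, at Notch2 (98098077 to 98098441) with heights of 11, 13 and 11, and at Jag2 (112926486 to 112926765) with 11, 15 and 10. That is 3.92% of the members, against 1.01% of all regions. Their mean heights, over the libraries that called them, were 11.7 at Notch2 and 12 at Jag2, below the median of 13 over all regions. The reverse pattern was found in 0 of the 51, against 0.0367% of all regions.

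**Figure D3:**
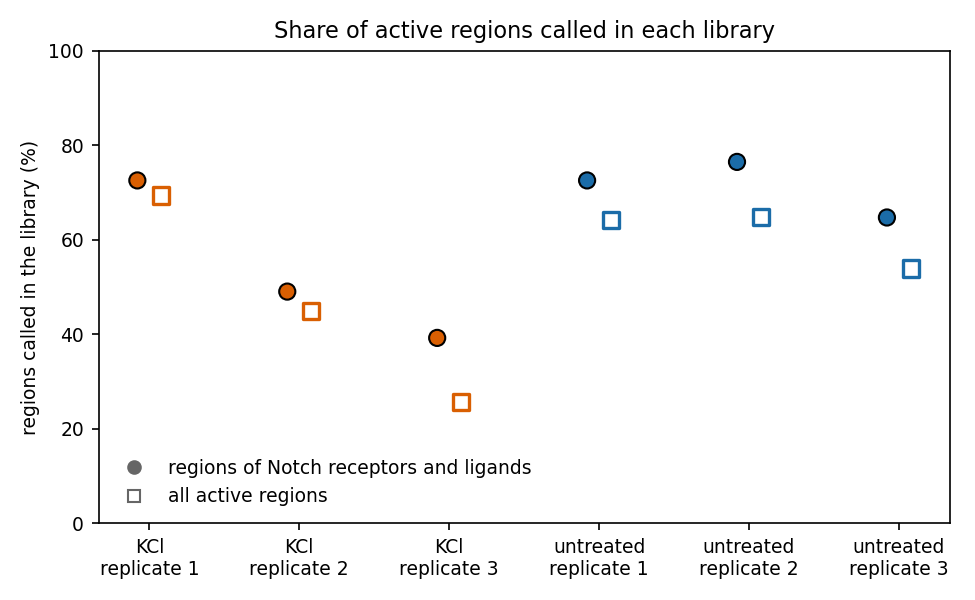
Percentage of the 51 member regions (filled circles) and of all 133337 active regions (open squares) called in each library, KCl in orange and untreated in blue. Both shares are lowest in KCl replicate 3, at 39.2% and 25.7%.

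Heights in the 15 member regions that all libraries called did not separate the groups. Their mean height was 36.3, 30.4 and 20.1 in KCl replicates 1 to 3, against 33.0, 33.7 and 27.7 in untreated replicates 1 to 3. The KCl libraries held both the highest and the lowest value. The group means were 28.9 ± 8.17 with KCl and 31.5 ± 3.25 untreated (SD, n = 3 each), and differed by -2.53 (two-sided exact permutation p = 0.8). The difference turned to 1.30 without KCl replicate 3, was -6.20 without KCl replicate 1 and was -4.40 without untreated replicate 3. For each omission the mean was taken over the member regions called in all libraries kept, which can be more than 15. After each library was divided by its median height over the 27310 regions called in all 6, the difference was 0.102 in units of that median (exact permutation p = 0.3).

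**Figure D4:**
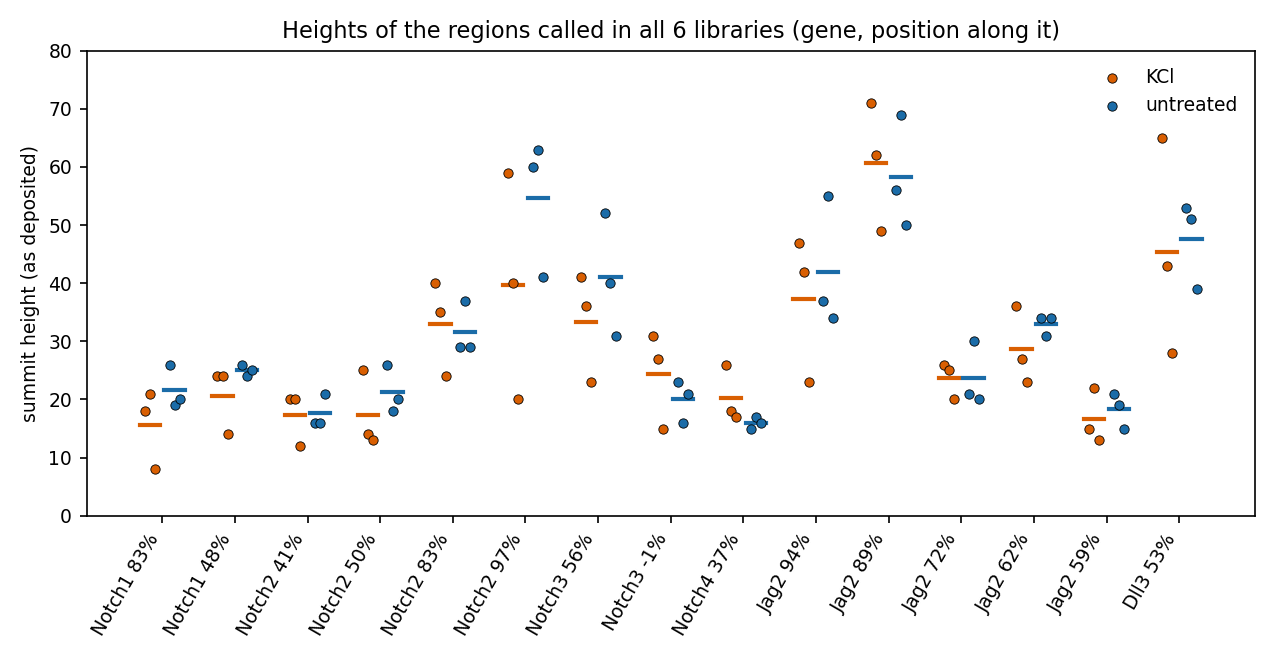
Summit heights as deposited (y axis) in the 15 member regions called in all 6 libraries, each named by its gene and its position in % of gene length; points are libraries, bars are group means, KCl left and untreated right. The groups overlap or meet at a shared value in every region, including Notch4, where the lowest KCl height and the highest untreated height are both 17.

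Region by region, 0 of the member regions passed the test for a change with KCl. Heights were compared as log2(height + 1) with limma, each library centred on its median over the 27310 regions called in all 6, so that a relative log2 change is a change beyond the shift of the typical region. Regions under the 25th percentile of mean height (18.7) were left out, which kept 12 of the 15 member regions and 20537 regions in all. At an adjusted p under 0.05 limma called 0 of the 12 and 0 of the 20537 (0% higher, 0% lower). At an unadjusted p under 0.05 it had 2 of the 12, both higher, and over all regions 432 higher (2.10%) and 277 lower (1.35%). Relative log2 changes of the 12 lay between -0.29 and 0.49, with limma SEs of 0.14 to 0.25 and an adjusted p of 1.00 in every case. Missing the threshold does not show that heights were equal. Of them 7 were above 0 (58.3%, against 53.3% of all tested regions) and 5 below, with a median of 0.06, against 0.02 over all.

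The 5 tested ligand regions, 4 of them in Jag2, had relative log2 changes above 0, with a median of 0.12. Of the 7 tested receptor regions 2 lay above 0 and 5 below, with a median of -0.04. On heights as deposited, without centring, 2 of the 5 ligand regions were above 0 and the receptor split was the same. Without single libraries 1 ligand region lay below 0 in every case but that of KCl replicate 1, and the receptors stood at 6 above and 5 below 0 without KCl replicate 3 and at 4 above and 2 below without untreated replicate 1. No test compared ligands with receptors. The lowest p among values above 0 was at the highest Jag2 region (112909799 to 112910454), with a relative log2 change of 0.31 (SE 0.14, limma unadjusted p = 0.0348, adjusted p = 1.00). The region upstream of Notch3 followed at 0.49 (SE 0.23, limma unadjusted p = 0.0385, adjusted p = 1.00), and Notch2 (98126933 to 98127402) at 0.30 (SE 0.19, limma unadjusted p = 0.114, adjusted p = 1.00). After centring, all 3 KCl libraries lay above all 3 untreated libraries in these 3 of the 12 regions (25%), against 4.86% of all tested regions, and below them in 0 of the 12, against 3.36%. As deposited the heights overlapped in each. The lowest p among values below 0 was at Notch2 near its downstream end (98145948 to 98146920), with a relative log2 change of -0.29 (SE 0.18, limma unadjusted p = 0.102, adjusted p = 1.00). Next were Notch1 (26465264 to 26465845) at -0.27 (SE 0.25, limma unadjusted p = 0.288, adjusted p = 1.00) and Notch2 (98081144 to 98081568) at -0.06 (SE 0.24). The Notch1 region had heights of 18, 21 and 8 with KCl and 26, 19 and 20 without. The Dll3 region had a relative log2 change of 0.12 (SE 0.16), the highest Notch1 region one of -0.04 (SE 0.22) and the highest Notch3 region one of -0.04 (SE 0.18). The 3 member regions under the height limit were fitted when that limit was dropped. Notch4 then had the largest value of the 15, a relative log2 change of 0.57 (SE 0.24, limma unadjusted p = 0.0187, adjusted p = 1.00), and the others were 0.21 at Notch2 (98068997 to 98069372) and 0.11 at Jag2 (112916671 to 112917151).

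**Figure D5:**
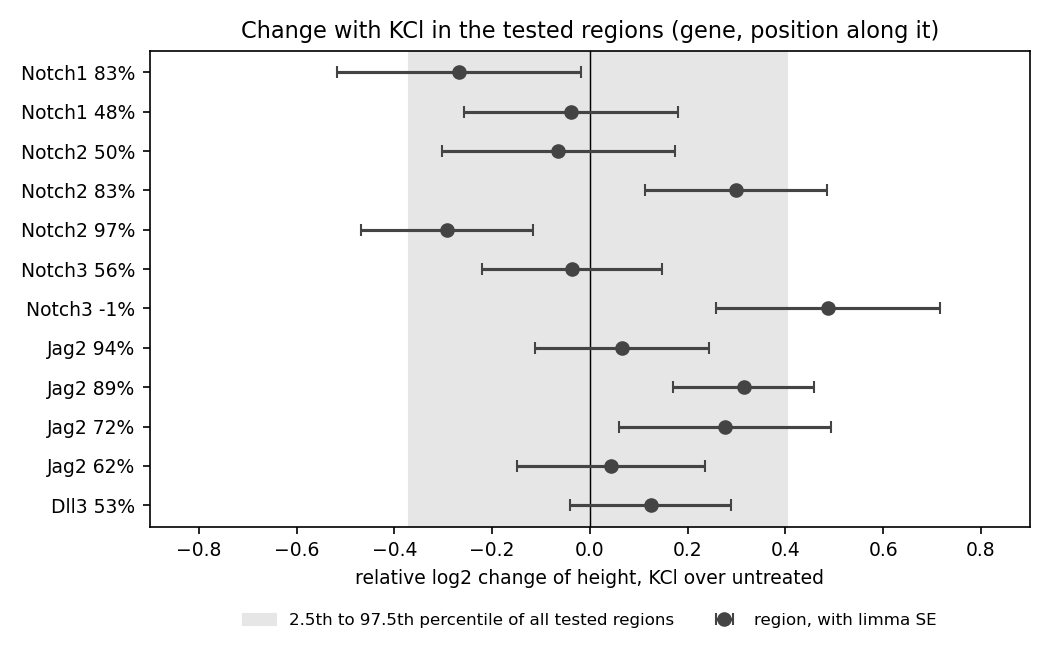
Relative log2 change of summit height, KCl over untreated, in the 12 tested member regions, each with its limma SE and named by gene and position in % of gene length; the grey band spans the 2.5th to 97.5th percentile of all 20537 tested regions, between -0.37 and 0.40. The region upstream of Notch3, at 0.49, is the single one whose value lies outside the band.

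The other genes of the pathway were taken as a list of 46, all of which were found in the annotation: effectors, coactivators, proteases, sugar transferases and regulators of ligand and receptor turnover. Of these, 34 (73.9%) had an active region, against 65.3% of protein-coding genes, and the median gene had 5.38 regions per 100 kb, against 10.8 over the receptors and ligands. The densest were Mib2, a ubiquitin ligase that drives uptake of Notch ligands (9 regions, 53.6 per 100 kb), Dlk1, an imprinted gene of a Delta-like protein (5 regions, 38.9), and Numbl, a relative of the Notch inhibitor Numb (7 regions, 27.2). The 12 genes with no region included the target repressors Hes1, Hes5, Hes7 and Hey1, the Hes family member Hes6 and the feedback inhibitor Nrarp. The windows of these genes were short, at 3.75 kb (Hes5) to 7.15 kb (Hes7). The target repressors with longer windows, Heyl (18.3 kb) and Hey2 (12.4 kb), had 1 region each. The others were Adam10, Rfng, Psenen, Aph1a, Aph1b and Dlk2, of which Adam10 encodes the protease that cuts Notch and Psenen, Aph1a and Aph1b encode γ-secretase subunits. Among 55 tested regions of the list 28 lay above 0 and 27 below, the median of their relative log2 changes was 0.00, and limma with Benjamini-Hochberg adjustment called 0 of them in either direction. The single one under an unadjusted p of 0.05, where 1.35% of all tested regions were lower and 2.10% higher, was at the target repressor gene Hey2 (chromosome 10, 30833781 to 30834355), with heights of 19, 23 and 13 with KCl and 30, 30 and 30 without, a relative log2 change of -0.45 (SE 0.22, limma unadjusted p = 0.0447, adjusted p = 1.00). All 3 KCl heights there were below all untreated heights. Of the 55 regions 1 had all KCl libraries below all untreated ones after centring and 1 had them above, against 3.36% below and 4.86% above over all tested regions, so neither count exceeded the background.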

How the data were processed

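Libraries were built and analysed by a service company, per the labels' protocols. The submitters' processing notes name BWA, SICER and the build mm10. Versions, caller settings, read filters and use of the input were not given in the sources used here. Per the file headers, the authors deposited for each of the 6 MeDIP libraries a track of called intervals and a track of summit heights, plus 1 track of active regions over all libraries. Whether heights were scaled between libraries is not stated. For each library the highest summit inside a region was its height there, and regions without an interval got no value. Starts were counted from 1, and gene bounds and promoter sequences came from RefSeq GRCm38.p6, whose coordinates are those of mm10.

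Heights of regions called in all 6 libraries were tested with limma 3.58.1 in R 4.3.3 (pseudocount 1, median centring, intensity trend, Benjamini-Hochberg adjustment over all regions tested, threshold 0.05, two-sided), after a test on simulated data. Values per library were compared by exact permutation over libraries. Depth being unknown, no counting intervals are given. Same-numbered libraries deviated together, with correlations of 0.11, 0.11 and 0.15 over 27310 regions, above the limit of 0.1 set for pairing. Differently numbered libraries of the 2 groups had correlations of -0.089 to -0.019. The track names alternate between untreated and KCl libraries in the order of the replicate numbers. No label says what the numbers stand for, so the main tests did not use the pairing, and a replicate block was run as an alternative. The SEs and p-values given for single regions are from the fit without the block. At an unadjusted p under 0.05 limma with the block had 620 regions higher and 437 lower of 20537. Without the block these were 432 and 277. Single regions were named by a rule: the highest of each gene, those within 1 kb of a gene end, and the 3 lowest p in each direction. Hey2 and the other single regions named were chosen after their values were seen. The genes, lists and tests were chosen with earlier results of these data known.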

Additional observations from a re-analysis of the deposited data

How the results depend on the processing

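Limma called 0 regions under every alternative run: heights as deposited, pseudocount 4, no filter, a replicate block with and without centring, and each library left out. The lowest adjusted p over all regions was 0.329 with the replicate block, 0.857 with the block on heights as deposited, 0.932 as deposited without it and 0.750 without KCl replicate 1. Centring moved every change by 0.26 on the log2 scale. The replicate block gave a difference of -9.00 member regions called (exact sign-flip p = 0.5) and of -2.53 in mean height (exact sign-flip p = 0.75), and it changed no call. With 3 pairs a sign-flip test cannot give a p under 0.05, so these p-values do not show that the groups were equal. The difference in calls was 0 with the same number of highest intervals per library and ranged over -13.8 to -5.33 without single libraries. The difference in mean height turned to 0.102 after division by the library median. It ranged over -6.20 to 1.30 without single libraries, each time over the member regions called in all libraries kept. The density of 14.3 regions per 100 kb was 4.22 for regions called in all 6 libraries and 11.8 with a summit of at least 12, since each counts fewer regions, and 13.2 to 14.3 without single libraries.

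Of 9 named relative log2 changes, 4 turned in sign under some alternative. Dll3 was at -0.14 as deposited, with and without the replicate block. Without single libraries the highest Notch1 region ranged over -0.17 to 0.019, Notch2 (98081144 to 98081568) over -0.27 to 0.074 and the highest Notch3 region over -0.18 to 0.12. Notch1 (26465264 to 26465845) ranged over -0.50 to -0.062, Notch2 near its downstream end over -0.46 (without KCl replicate 1) to -0.068 (without KCl replicate 3), and the region upstream of Notch3 over 0.24 (without untreated replicate 2) to 0.60. Without untreated replicate 1, Notch1 (26465264 to 26465845) and Notch2 (98081144 to 98081568) fell under the height limit, so their ranges cover 5 of the 6 omissions. The highest Jag2 region stayed between 0.25 and 0.38 without single libraries, and Notch2 (98126933 to 98127402) between 0.22 and 0.33. On heights as deposited these 2 were at 0.052 and 0.037, and the region upstream of Notch3 was at 0.23. Values below 0 were lower there, at -0.53 for Notch1 (26465264 to 26465845) and -0.56 for Notch2 near its downstream end. The cause of these shifts was not tested. Unknown depth limits all counts of calls.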
